A study of Mus musculus with 24 samples.

Results

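The 7 genes described here encode enzymes of glucose, fructose and inositol metabolism in the proximal tubule: Pcx, Pck1, Fbp1 and G6pc of gluconeogenesis, Khk and Sord of fructose metabolism, and Miox of inositol breakdown. They were named as a pathway group and matched by symbol to the gene identifiers, which found all 7 among the 30153 genes of the deposited table. Polyadenylated RNA of 24 libraries labelled mouse kidney was sequenced, in 6 groups of 4 animals, to ask how a western diet alters the kidney of hypertensive mice with a human angiotensin receptor gene. The strain label is C57/BL6 throughout. The groups are aged Hap-I mice on western diet (Hap-I aged WD), adult Hap-I mice on western diet (Hap-I adult WD), adult Hap-II mice on western diet (Hap-II adult WD), aged Hap-I mice, adult Hap-I mice and adult C57 mice. The Hap-I animals carry a human angiotensin receptor type 1 transgene of haplotype I, the Hap-II animals one of haplotype II, and C57 is the only group without a transgene. No C57 group on western diet was analysed here, so transgene and diet cannot be told apart in any comparison with C57. The sources used here do not give the promoter that drives the transgene, the ages in weeks, the sex or the length of the diet.

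Gluconeogenesis makes glucose from lactate, glutamine and other precursors, and the proximal tubule is the site of this pathway in the kidney. The same cells phosphorylate fructose with ketohexokinase and open the ring of myo-inositol with myo-inositol oxygenase, an enzyme known mainly from kidney. Sorbitol dehydrogenase joins the pathways, since it turns sorbitol made from glucose into fructose.

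The values are TPM (transcripts per 1000000, a level scaled by transcript length and by the total of the library). The 8 libraries labelled Hap-I aged and Hap-I adult went against their kidney label. Their 8 neuron markers summed to between 3961 and 5037 TPM, against 0.631 to 7.23 TPM in the other 16 libraries. Their 12 proximal tubule markers summed to between 55.4 and 102 TPM, against 1146 to 6148 TPM in the other 16. They are called the labelled Hap-I libraries below and serve as a comparison for tubule content, not for diet. Among the 16 kidney libraries, mitochondrially encoded genes took between 21.2% and 35.7% of TPM in the 12 western diet libraries and between 12.4% and 16.9% in the 4 C57 libraries. Read depth cannot be had from TPM and is unknown.

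The region around the start of transcription is shown for 4 of the genes, each of which holds at least 1 motif known from promoters of glucose metabolism or from core promoters. Each is 250 bases before to 50 bases after the start in RefSeq, build GRCm38.p6, printed 5′ to 3′ on the plus strand, which is the strand of all 4 genes. Capitals mark 4 motifs, searched on both strands, whose letters are given below the sequences.
Pck1, chr2:173152823-173153122: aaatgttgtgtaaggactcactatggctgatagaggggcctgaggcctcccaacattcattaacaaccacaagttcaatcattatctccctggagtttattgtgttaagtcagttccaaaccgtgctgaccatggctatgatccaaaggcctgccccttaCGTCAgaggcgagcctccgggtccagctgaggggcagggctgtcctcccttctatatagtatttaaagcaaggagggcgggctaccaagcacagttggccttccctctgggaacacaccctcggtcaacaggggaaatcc
G6pc, chr11:101367466-101367765: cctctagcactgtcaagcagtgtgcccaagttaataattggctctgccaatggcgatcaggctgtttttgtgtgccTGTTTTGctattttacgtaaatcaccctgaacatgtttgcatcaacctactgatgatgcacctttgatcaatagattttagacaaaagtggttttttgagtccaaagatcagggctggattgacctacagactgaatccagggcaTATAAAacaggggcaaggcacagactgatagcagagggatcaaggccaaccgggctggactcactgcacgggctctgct
Khk, chr5:30921309-30921608: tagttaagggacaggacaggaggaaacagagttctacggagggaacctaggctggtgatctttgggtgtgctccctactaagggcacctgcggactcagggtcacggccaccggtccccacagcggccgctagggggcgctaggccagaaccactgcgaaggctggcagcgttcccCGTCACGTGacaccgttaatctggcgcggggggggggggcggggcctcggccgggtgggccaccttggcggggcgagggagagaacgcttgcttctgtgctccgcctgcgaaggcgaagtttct
Miox, chr15:89334223-89334522: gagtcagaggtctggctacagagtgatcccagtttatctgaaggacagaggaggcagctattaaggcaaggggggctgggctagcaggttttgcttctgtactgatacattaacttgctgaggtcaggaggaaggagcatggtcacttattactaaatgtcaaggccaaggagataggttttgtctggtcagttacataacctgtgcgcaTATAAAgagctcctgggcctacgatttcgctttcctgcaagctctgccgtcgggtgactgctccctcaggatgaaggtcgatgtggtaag
All 7 genes matched the RefSeq promoter table, with 8 windows because Pcx has 2. The CRE half-site TGACG, known from the cAMP response of Pck1, lies at -90 in Pck1 and at -74 in Khk, counted from the start of transcription, and 20.8% of all 32817 mouse promoter windows of the same length hold it. In Khk it overlaps the E-box CACGTG at -71, a motif in 7.15% of all windows and also found at -248 in the first Pcx window. The TATA box TATAAA lies at -29 in G6pc and at -40 in Miox and is in 13.6% of windows. The insulin response element core CAAAACA lies at -174 in G6pc and is in 6.29% of windows. None of the 8 windows held the full CRE TGACGTCA, the HNF4 motif CAAAGTCCA or the forkhead motif TGTTTAC, with both strands searched. These matches describe letters in short windows and say nothing of binding in these kidneys.

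All 7 enzymes were strongly expressed in the 16 kidney libraries, with positions below on GRCm38. By mean TPM over these libraries Miox ranked at place 33 of 30153 genes, Pck1 at 139, Fbp1 at 141, Sord at 143, Khk at 404, G6pc at 615 and Pcx at 1546. The spread between libraries also differed from enzyme to enzyme. The highest library exceeded the lowest 13.1-fold for Pck1, 5.06-fold for G6pc, 3.63-fold for Pcx, 3.58-fold for Miox, 2.82-fold for Fbp1, 2.29-fold for Khk and 1.90-fold for Sord. For each enzyme, every group of the 4 with kidney content overlapped its neighbour in the order of mean levels, so no step in that order exceeds the range of the libraries.

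**Figure D1:**
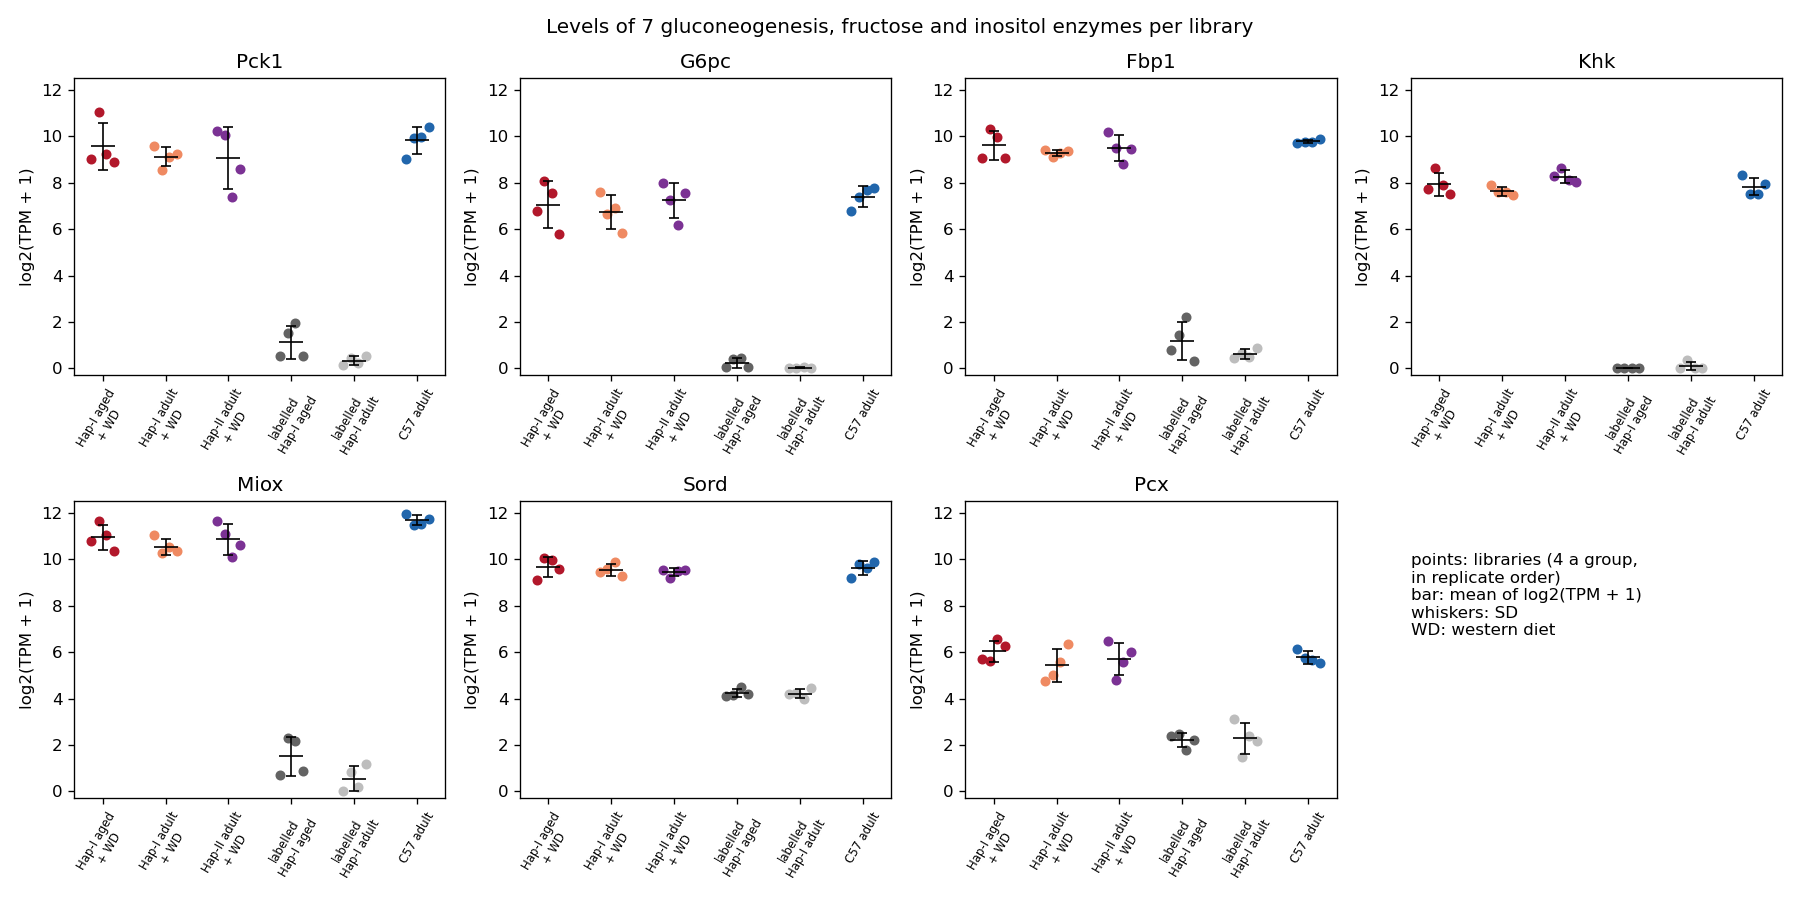
Level of each enzyme as log2(TPM + 1) in the 24 libraries, by group, with western diet written as WD; points are libraries, the bar is the mean and the whiskers are the SD of 4 libraries. The 16 kidney libraries lie far above the 8 labelled Hap-I libraries for all 7 enzymes, and the kidney groups overlap, widest for Pck1.

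Pcx (ENSMUSG00000024892, chr19:4510472-4621752, plus strand), mitochondrial pyruvate carboxylase, makes the oxaloacetate that starts the pathway. It had 51.1, 48.2, 94.2 and 75.2 TPM in Hap-I aged WD, 25.9, 31.6, 46.5 and 81.0 TPM in Hap-I adult WD, 87.8, 27.0, 46.1 and 62.4 TPM in Hap-II adult WD, and 69.9, 53.4, 49.9 and 44.7 TPM in C57 adults. The western diet groups each span the C57 values or most of them, and Pcx is the enzyme with the lowest level of the 7.

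Pck1 (ENSMUSG00000027513, chr2:173153048-173159273, plus strand), cytosolic phosphoenolpyruvate carboxykinase, turns oxaloacetate into phosphoenolpyruvate and is the step of the pathway most under hormonal control. It had 519, 2150.1, 612 and 479.6 TPM in Hap-I aged WD, 759, 379, 551 and 603 TPM in Hap-I adult WD, 1208, 1074, 164 and 384 TPM in Hap-II adult WD, and 523, 986, 1002 and 1360.1 TPM in C57 adults. Its mean was 940.0 ± 809 TPM in Hap-I aged WD, 573 ± 156 TPM in Hap-I adult WD, 708 ± 511 TPM in Hap-II adult WD and 968 ± 343 TPM in C57 adults (SD, n = 4 each). A single library, Hap-I aged WD library 2, carries the high mean of its group, whose median was 565 TPM. Hap-II adult WD holds both a pair of libraries above 1000 TPM and the lowest of the 16.

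Pck1 is also active in fat and liver, and markers of both cell types were read beside it. The 5 adipocyte markers summed to 145 to 334 TPM in Hap-I aged WD, 114 to 200.3 TPM in Hap-I adult WD, 107 to 249 TPM in Hap-II adult WD and 145 to 1174 TPM in C57 adults. Plin1 was listed at 0 in all 4 libraries of Hap-I aged WD and of Hap-II adult WD, the only 1 of the 5 adipocyte markers so listed. C57 library 4 had the highest Pck1 of its group, 1360.1 TPM, with the lowest adipocyte sum of its group, 145 TPM. The 6 hepatocyte markers summed to 57.6 to 177 TPM in Hap-I aged WD and 90.4 to 290.4 TPM in Hap-I adult WD. Their sums were 98.0 to 146 TPM in Hap-II adult WD and 73.0 to 98.0 TPM in C57 adults. Cyp7a1 was the only 1 of the 6 listed at 0 in all libraries of Hap-I aged WD and of Hap-I adult WD. The part of either cell type in the Pck1 level was not tested.

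Fbp1 (ENSMUSG00000069805, chr13:62864753-62888282, minus strand), fructose-1,6-bisphosphatase, had 543, 1266, 1012 and 533 TPM in Hap-I aged WD, 684, 552, 622 and 659 TPM in Hap-I adult WD, 1179, 733, 449 and 705 TPM in Hap-II adult WD, and 847, 863, 871 and 950.1 TPM in C57 adults. All 4 Hap-I adult WD libraries lie below all 4 C57 libraries, while the other diet groups span them. The C57 libraries differed little, with a coefficient of variation of 5.22%, against 43.2% in Hap-I aged WD, 9.14% in Hap-I adult WD and 39.6% in Hap-II adult WD.

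G6pc (ENSMUSG00000078650, chr11:101367561-101377903, plus strand), the catalytic subunit of glucose-6-phosphatase, releases free glucose in the last step. It had 108, 271, 188 and 53.7 TPM in Hap-I aged WD, 191, 100.1, 118 and 56.4 TPM in Hap-I adult WD, 252, 150.0, 71.6 and 185 TPM in Hap-II adult WD, and 109, 165, 203 and 217 TPM in C57 adults. No group lay apart from another, and the lowest value of each diet group fell below every C57 value.

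Khk (ENSMUSG00000029162, chr5:30921431-30931248, plus strand), ketohexokinase, phosphorylates fructose. It had 209.9, 401, 237 and 182 TPM in Hap-I aged WD, 236, 192, 191 and 175 TPM in Hap-I adult WD, 312, 399, 273 and 261 TPM in Hap-II adult WD, and 319.8, 183, 184 and 249 TPM in C57 adults. Every Hap-I adult WD library was below every Hap-II adult WD library, and Hap-II adult WD had the highest group mean, 311 ± 62.5 TPM (SD, n = 4).

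Sord (ENSMUSG00000027227, chr2:122234749-122265340, plus strand), sorbitol dehydrogenase, had 555, 1057, 1015 and 771 TPM in Hap-I aged WD, 698, 757, 951 and 624 TPM in Hap-I adult WD, 749.6, 592, 719 and 741 TPM in Hap-II adult WD, and 579, 883, 786 and 947 TPM in C57 adults. It was the most even of the 7 enzymes across the 16 kidney libraries. Of the 31-base words in its transcripts, 35.9% also occur in the pseudogene Gm6652, which had at most 1.04 TPM in any library, and how reads were shared between them was not tested. The other 6 enzymes share at most 0.628% of such words with any other gene.

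Miox (ENSMUSG00000022613, chr15:89334398-89337015, plus strand), myo-inositol oxygenase, makes glucuronate from myo-inositol. It had 1747, 3212, 2122 and 1321 TPM in Hap-I aged WD, 2094, 1220.1, 1491 and 1300.2 TPM in Hap-I adult WD, 3235, 2200.4, 1102 and 1551 TPM in Hap-II adult WD, and 3949, 2902, 2961 and 3471 TPM in C57 adults. Its mean was 2101 ± 810.1 TPM in Hap-I aged WD, 1526 ± 395 TPM in Hap-I adult WD, 2022 ± 926 TPM in Hap-II adult WD and 3321 ± 491 TPM in C57 adults (SD, n = 4 each). Only Hap-I adult WD lies wholly below C57, with a gap between 2094 and 2902 TPM, and 1 library of each other diet group reaches the C57 range.

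Within some groups, 1 library was the highest for most of the enzymes. Hap-I aged WD library 2 was the highest of its group for 6 of the 7 enzymes, all but Pcx, and library 4 was the lowest for 5. Hap-II adult WD library 1 was the highest of its group for 6 enzymes, all but Khk, and library 3 was the lowest for Pck1, G6pc, Fbp1 and Miox. Hap-I adult WD library 1 was the highest for 5 enzymes and the lowest for Pcx. Hap-II adult WD library 2 was the highest for Khk and the lowest for Sord and Pcx. In C57, library 1 was the highest for Khk, Miox and Pcx and the lowest for the other 4 enzymes, and library 4 was the highest for those 4. Proximal tubule marker sums were 1489, 5303, 4881 and 1146 TPM in Hap-I aged WD, 2163, 1988, 2128 and 1166 TPM in Hap-I adult WD, 4840, 1940, 1583 and 2751 TPM in Hap-II adult WD, and 4503, 6148, 5609 and 6136 TPM in C57 adults. In bulk tissue, fewer tubule cells and less RNA of these genes per cell cannot be told apart.

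**Figure D2:**
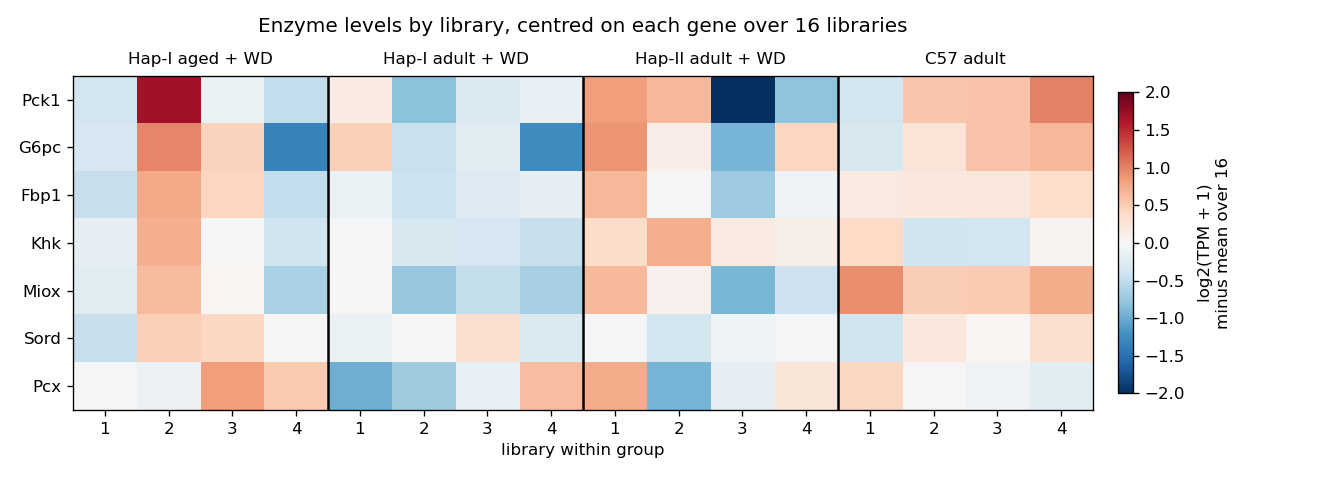
Level of each enzyme in the 16 kidney libraries as log2(TPM + 1) minus its mean over the 16, with red above and blue below that mean; columns are libraries 1 to 4 of each group. Library 2 of Hap-I aged WD is above the mean for 6 of 7 enzymes and is the highest of its group for those 6, and Sord has the smallest range of the 7 enzymes.

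Set against the summed proximal tubule markers, the order of the groups changed. Miox per tubule marker was 0.842 ± 0.378 in Hap-I aged WD, 0.850 ± 0.233 in Hap-I adult WD, 0.766 ± 0.252 in Hap-II adult WD and 0.611 ± 0.182 in C57 adults (SD, n = 4 each). Sord per tubule marker was 0.363 ± 0.221 in Hap-I aged WD, 0.421 ± 0.0914 in Hap-I adult WD, 0.296 ± 0.124 in Hap-II adult WD and 0.142 ± 0.0106 in C57 adults. The mean ratio was lowest in C57 for each of the 7 enzymes. These ratios divide the enzyme by markers whose mean sum was lower in each diet group than in C57, and no test was made of them. Some libraries of Hap-I aged WD and Hap-II adult WD had marker sums within the C57 range.

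The distance between profiles was measured as the mean absolute difference of log2(TPM + 1), each gene centred on its own mean, over the 16 kidney libraries. Among the enzymes, the closest pairs were Fbp1 with Sord at 0.277 and Fbp1 with Miox at 0.277, and the farthest was Pck1 with Pcx at 0.880. Among 5389 genes with a mean of at least 10 TPM, the nearest to Pck1 were Bhlhe40 at 0.272 and Alb at 0.306, and the nearest to G6pc were Cd164 at 0.181 and the glucose transporter gene Slc2a2 at 0.195. Fbp1 was nearest to Pus1 at 0.119 and Mlf2 at 0.127, Khk to Snrpc at 0.160 and Atpif1 at 0.162, and Miox to Igfbp7 at 0.122 and Dcps at 0.125. Sord was nearest to Pawr at 0.122 and Ankrd16 at 0.124, and Pcx to Spsb2 at 0.270 and Tnfrsf12a at 0.281. These distances are not scaled by the spread of the gene itself, a mean absolute deviation of 0.686 for Pck1 and 0.224 for Sord.

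Age on western diet was compared within Hap-I. None of the 7 enzymes changed between Hap-I aged WD and Hap-I adult WD in limma at an adjusted p under 0.05, where 0.031% of the 12923 genes tested were called. With array weights, 2199 genes were called, 2041 of them higher in Hap-I aged WD, among them Pcx with an adjusted p of 0.0282. Without the weights, none of the 7 enzymes had an unadjusted p under 0.05 either. The estimates were all positive, with log2 changes of TPM + 1 of 0.61 ± 0.364 (SE) for Pcx, 0.44 ± 0.562 for Pck1, 0.42 ± 0.309 for Miox, 0.31 ± 0.286 for Fbp1, 0.31 ± 0.247 for Khk, 0.30 ± 0.473 for G6pc and 0.14 ± 0.220 for Sord. The median of all genes tested was 0.32, and 3 of the 7 lay above it. After rescaling by median of ratios the estimates of G6pc, Fbp1, Khk, Miox and Sord were below 0. In the pathway lists, 0 of 16 other gluconeogenesis genes, 0 of 11 fructose and polyol genes and 0 of 11 inositol and glucuronate genes changed by limma, with 2, 1 and 1 of them at an unadjusted p under 0.05. Mpc1 and Mpc2, the subunits of the mitochondrial pyruvate carrier, had log2 changes of -0.60 ± 0.172 and -0.79 ± 0.256 with adjusted p of 0.157 and 0.183, and for both genes all 4 Hap-I aged WD libraries lay below all 4 Hap-I adult WD libraries. Non-overlapping groups were found for 6.82% of all genes in this comparison, and the 2 carrier genes were picked out after their values were seen.

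The haplotypes were compared in adults on the diet. None of the 7 enzymes changed between Hap-I adult WD and Hap-II adult WD by limma, where 0.0774% of the genes tested were called, and 1 had an unadjusted p under 0.05. That gene was Khk, with a mean of 199 ± 26.3 TPM in Hap-I adult WD and 311 ± 62.5 TPM in Hap-II adult WD (SD, n = 4 each), a log2 change of -0.63 ± 0.247 (SE) and an adjusted p of 0.817. Khk was also the only enzyme whose groups did not overlap, which was so for 2.53% of all genes tested. The other log2 changes were -0.49 ± 0.473 for G6pc, -0.32 ± 0.309 for Miox, -0.28 ± 0.364 for Pcx, -0.21 ± 0.286 for Fbp1, 0.10 ± 0.220 for Sord and 0.05 ± 0.562 for Pck1, beside a median of -0.22 over all genes. Pck1 turned to -0.55 when the libraries with the fewest genes above 0 were left out, of which Hap-II adult WD library 3 is one. No gene of the gluconeogenesis, fructose or inositol lists changed by limma, and none had an unadjusted p under 0.05.

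**Figure D3:**
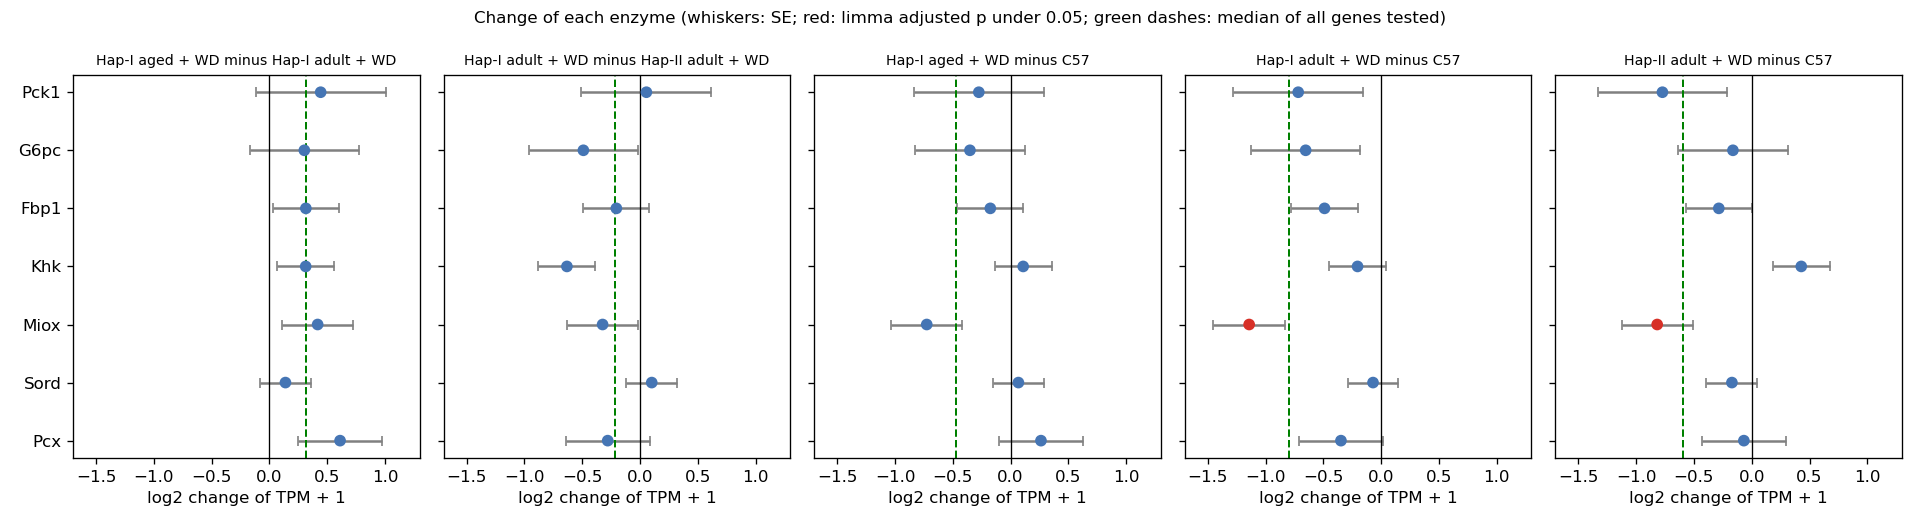
Log2 change of TPM + 1 of each enzyme in the 5 comparisons among kidney groups, with the SE as whiskers, red for an adjusted p under 0.05 and a green dashed line at the median of all genes tested. Miox is red against C57 in Hap-I adult WD and in Hap-II adult WD, and most other points lie right of the green line in the 3 comparisons with C57.

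On the scale of the deposited TPM, Miox had the lowest log2 change of the 7 enzymes against C57 adults in each diet group, while after median-of-ratios rescaling it had the change nearest to 0 in Hap-I adult WD. In Hap-I adult WD it fell to 46.0% of the C57 mean, a log2 change of -1.14 ± 0.309 (SE) with an adjusted p of 0.00612 in limma, and it was lower in 4 of 4 libraries than in any C57 library. This was the only call among the 7 enzymes, in a comparison where 62% of all genes were called and 59.7% were called lower. In Hap-II adult WD Miox fell to 60.9% of the C57 mean, with a log2 change of -0.82 ± 0.309 and an adjusted p of 0.0451, where 39.7% of all genes were called and 36.9% were called lower. In Hap-I aged WD it was 63.3% of the C57 mean, with a log2 change of -0.73 ± 0.309 and an adjusted p of 0.0951, and there 0 of 7 enzymes were called by limma and 1, Miox, had an unadjusted p under 0.05, beside 17.5% of all genes called. These 3 comparisons share the same 4 C57 libraries. With each library left out in turn, the Hap-I adult WD call held in 8 of 8 fits. The Hap-II adult WD call held in 1 of 8, the fit without Hap-II adult WD library 1, and Hap-I aged WD passed the test in 1 of 8, at -0.96 with an adjusted p of 0.0271 without its library 2.

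Most genes were lower in the diet groups than in C57 on the TPM scale. The median log2 change of all 12923 genes was -0.48 in Hap-I aged WD, -0.80 in Hap-I adult WD and -0.59 in Hap-II adult WD against C57. Relative to that median, Miox was -0.25, -0.34 and -0.23 in the same 3 groups. Khk was 0.58 and 0.60 above it in the Hap-I groups and more in Hap-II adult WD, Sord 0.54, 0.73 and 0.42 above it, and Pcx 0.74, 0.45 and 0.52 above it. Fbp1 was 0.30, 0.31 and 0.31 above the median, G6pc 0.12, 0.15 and 0.43, and Pck1 0.20, 0.08 and -0.18. The number of enzymes above that median was 6 of 7 in Hap-I aged WD, 6 of 7 in Hap-I adult WD and 5 of 7 in Hap-II adult WD, with Miox below it in all 3.

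On the scale of the deposited TPM, the 6 enzymes other than Miox did not pass the test against C57 in any diet group. In Hap-I adult WD the log2 changes were -0.72 ± 0.562 for Pck1, -0.65 ± 0.473 for G6pc, -0.49 ± 0.286 for Fbp1, -0.35 ± 0.364 for Pcx, -0.20 ± 0.247 for Khk and -0.07 ± 0.220 for Sord. Fbp1 and Miox were the 2 enzymes whose groups did not overlap there, beside 57.7% of all genes. In Hap-II adult WD Pck1 was at -0.77 ± 0.562 and Khk at 0.43 ± 0.247, with adjusted p of 0.263 and 0.162. In Hap-I aged WD the 6 lay between -0.35 ± 0.473 for G6pc and 0.26 ± 0.364 for Pcx. When libraries were weighted by their spread (array weights), 4 more enzymes were called lower in Hap-I adult WD: Pck1 at -1.12, G6pc at -0.81, Fbp1 at -0.57 and Pcx at -0.43. Without the weights, 59.7% of all genes were called lower in that comparison, and the share with them is not reported here. With the weights, Pck1 was called lower in Hap-II adult WD at -1.20 and Khk higher at 0.56. There 8944 of the 12923 genes were called lower and 762 higher. With the proximal tubule markers as a covariate, G6pc was called higher in Hap-II adult WD at 0.98, with an adjusted p of 0.0294. With that covariate 169 genes were called higher there and 729 lower. With only the compared groups fitted, limma called Pck1 and Fbp1 lower in Hap-I adult WD, with adjusted p of 0.0486 and 0.00490. The share of all genes called in that fit is not reported here.

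Rescaling by median of ratios, which sets the median gene near 0, moved the median over the genes tested in Hap-I adult WD to -0.01. Miox then had a log2 change of -0.12 with an adjusted p of 0.728, so the call was lost. Sord and Khk were then called higher in Hap-I adult WD than in C57, at 0.95 with an adjusted p of 0.0103 and at 0.81 with an adjusted p of 0.0252. In that scaling 2304 of the 12923 genes were called higher in Hap-I adult WD and 1831 lower. Sord was called higher there after transcript length correction too, at 0.72 with an adjusted p of 0.0189, beside 2592 genes called higher. Khk in Hap-II adult WD was called higher than in C57 after median-of-ratios rescaling at 1.16, quantile normalization at 0.70 and transcript length correction at 0.85. In the same order, 1661, 1509 and 1959 genes were called higher there. The direction of every enzyme but Miox against C57 in Hap-I adult WD turned in median-of-ratios rescaling. Over 13 alternatives other than leaving out a library, Miox stayed below 0 in all of them in all 3 diet groups, and was called in 9 of the 13 in Hap-I adult WD, 5 in Hap-II adult WD and 1 in Hap-I aged WD.

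**Figure D4:**
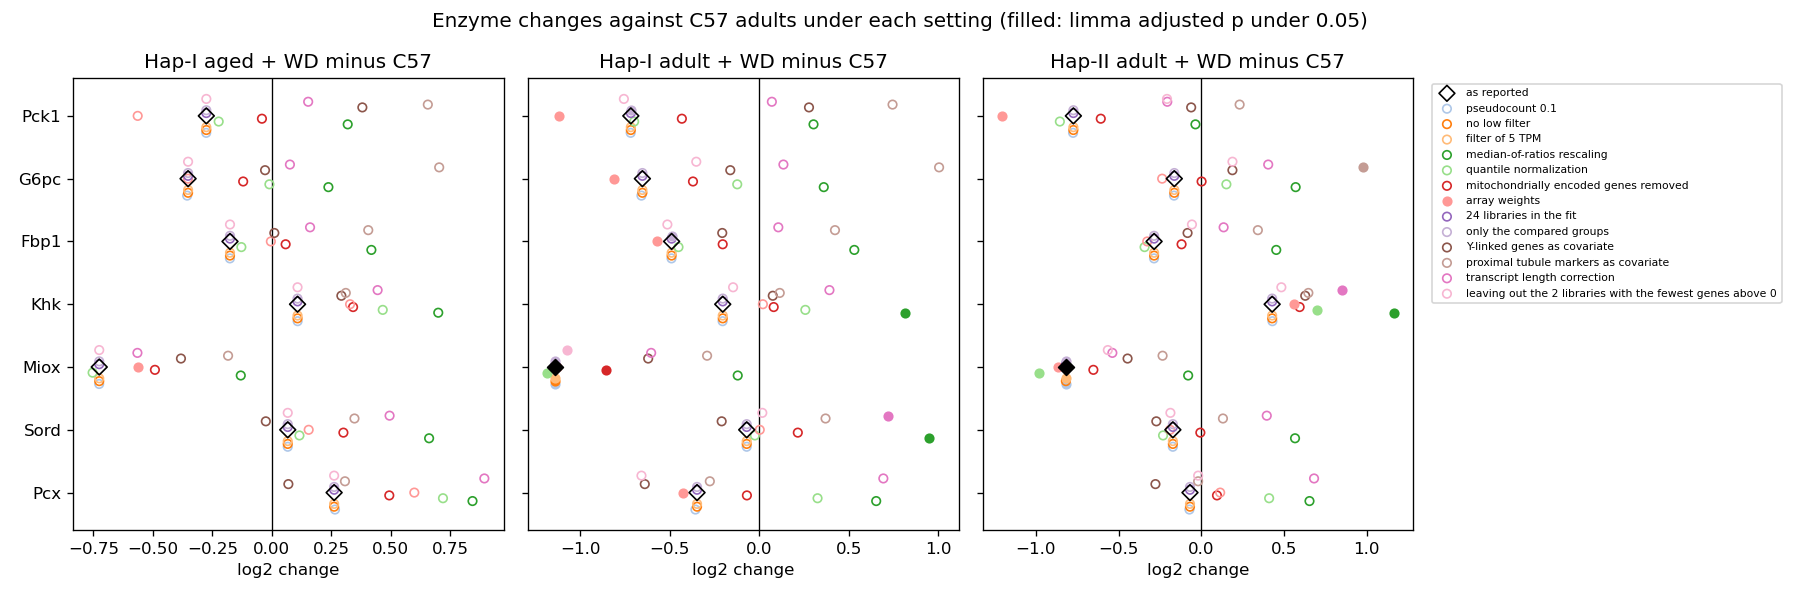
Log2 change of each enzyme against C57 adults in Hap-I aged WD, Hap-I adult WD and Hap-II adult WD, as reported (diamonds) and under each alternative setting (circles); filled marks have an adjusted p under 0.05. Miox stays left of 0 in every setting shown, down to -0.12 in Hap-I adult WD with median-of-ratios rescaling, while the other 6 enzymes lie on both sides of 0 in Hap-I adult WD.

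Y-linked genes and tubule markers were read beside the enzymes, and Miox had a lower median in the diet libraries with more Eif2s3y. Eif2s3y was at or above 5 TPM in 7 of the 12 diet libraries. It was below 1 TPM in the other 5 and in all 4 C57 libraries, and the labels give no sex. The 7 were 3 of 4 libraries in Hap-I adult WD, 2 of 4 in Hap-I aged WD and 2 of 4 in Hap-II adult WD. The compared groups are thus not balanced for Eif2s3y. In Hap-I adult WD the 1 library below 5 TPM had the highest Miox and Khk of its group, 2094 and 236 TPM. Miox ranged from 1102 to 2122 TPM, with a median of 1321 TPM, in those 7 libraries, and from 1747 to 3235 TPM, with a median of 2200.4 TPM, in those 5. Pck1 had a median of 479.6 TPM in the 7 and 1074 TPM in the 5, and G6pc, Fbp1 and Khk also had lower medians in the 7. Sord and Pcx had higher medians in the 7, 757 and 62.4 TPM, than in the 5, 698 and 48.2 TPM. With 4 Y-linked genes averaged into a covariate, Miox was at -0.62 in Hap-I adult WD against C57, with an adjusted p of 0.0910, and with the proximal tubule markers as a covariate at -0.29 with an adjusted p of 0.638. Over all genes, calls in this comparison numbered 8009 without a covariate, 3284 with the Y-linked covariate and 167 with the tubule marker covariate. All 12 proximal tubule markers had log2 changes below 0 in Hap-I adult WD against C57, with a median of -1.56. Of the 12, 8 were called, beside 59.7% of all genes called lower, and the median of all genes was -0.80. Since no C57 library had Eif2s3y at 5 TPM, its part in the difference from C57 cannot be told apart from that of the groups.

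The change against C57 also varied with transcript length. Against C57 the median log2 change in Hap-I adult WD was -0.21 for genes whose longest annotated transcript is up to 1000 bases, -0.40 for 1000 to 1500 bases and -1.05 above 8000 bases. Miox, with a longest transcript of 1130 bases and a change of -1.14, was below the median of its length class, and Pcx, with 4148 bases, at -0.35, above the -0.89 of its class of 3000 to 5000 bases. With a correction for length, chosen after the data had been seen, Miox was at -0.60 with an adjusted p of 0.0605, and the other 6 enzymes were above 0 in Hap-I adult WD.

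**Figure D5:**
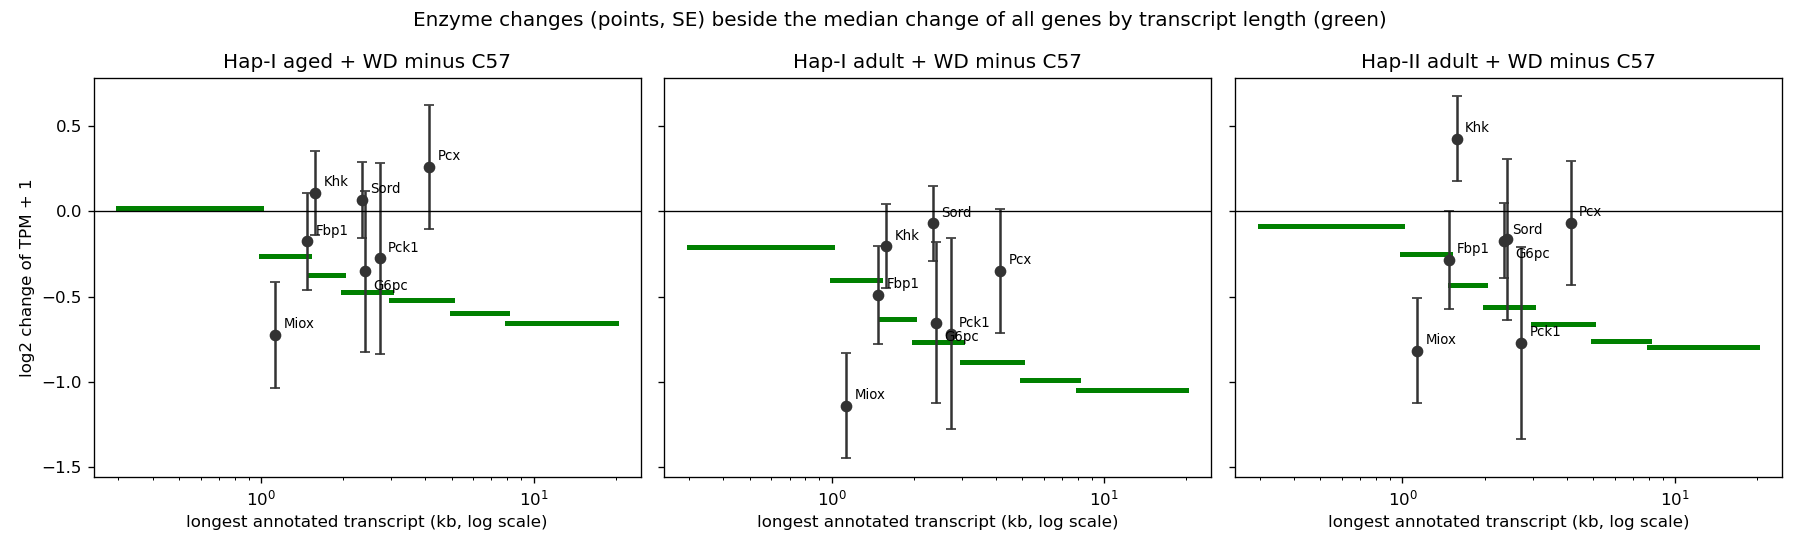
Log2 change of each enzyme against C57 adults (points, SE) over its longest annotated transcript in kb on a log axis, for Hap-I aged WD, Hap-I adult WD and Hap-II adult WD; green bars are medians of all genes in each length class, the first class drawn from 0.3 kb and the last up to 20 kb. Miox lies below the median of its class in all 3 panels, Fbp1 lies slightly below its own in Hap-I adult WD and Hap-II adult WD, Pck1 below its own in Hap-II adult WD, and the other points lie above.

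The rest of the gluconeogenic pathway was lower in Hap-I adult WD than in C57 for 10 of 16 genes tested and higher for 2, beside 59.7% of all genes called lower, with a median log2 change of -0.94 beside -0.80 for all genes. Under median-of-ratios rescaling the same list gave 3 higher, 3 lower and a median of -0.14. The 2 higher genes were Mpc1, at 944 ± 112 TPM in Hap-I adult WD and 584 ± 48.3 TPM in C57, and Mpc2, at 1054 ± 186 TPM and 598 ± 104 TPM (SD, n = 4 each). They rose by 0.69 ± 0.172 and 0.82 ± 0.256 on the log2 scale, with adjusted p of 0.00425 and 0.0127, and stayed higher and called in all 3 rescalings tried. Got1 and Got2, the aspartate aminotransferases, fell by 1.71 ± 0.375 and 1.77 ± 0.373, and stayed lower and called in the same rescalings. Slc25a12, an aspartate and glutamate carrier, fell by 1.66.

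The paralogs of Pck1, Fbp1 and G6pc were expressed at lower levels per length than those enzymes in kidney. Pck2, the mitochondrial form of the carboxykinase, averaged 0.846 ± 0.505 TPM in Hap-I adult WD and 2.28 ± 0.611 TPM in C57, a log2 change of -0.85 with an adjusted p of 0.0339. Fbp2, the muscle-type bisphosphatase, averaged 10.3 ± 6.77 TPM and 43.3 ± 3.01 TPM in those groups, and fell by 2.15 ± 0.568 with an adjusted p of 0.00555. G6pc3, the widely expressed glucose-6-phosphatase subunit, averaged 18.4 ± 2.05 TPM and 45.6 ± 5.06 TPM and fell by 1.27 ± 0.274 with an adjusted p of 0.00221. Neither Pck2 nor G6pc3 was called after median-of-ratios rescaling, and Fbp2 had an adjusted p of 0.0524 there. Slc37a4, which carries glucose 6-phosphate to G6pc, averaged 82.8 ± 7.78 TPM in Hap-I adult WD and 133 ± 32.8 TPM in C57, a log2 change of -0.65 ± 0.332 with an adjusted p of 0.0952.

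Of 11 fructose and polyol genes, 6 fell in Hap-I adult WD against C57 and 0 rose, beside the 59.7% of all genes called lower, and the median log2 change was -1.23, or -0.22 with 1 higher and 2 lower after median-of-ratios rescaling. Tkfc, which phosphorylates the glyceraldehyde formed from fructose, averaged 60.4 ± 20.8 TPM in Hap-I adult WD and 138 ± 12.9 TPM in C57, with a log2 change of -1.23 ± 0.448 and an adjusted p of 0.0264. The fructose transporter gene Slc2a5 averaged 20.4 ± 8.96 TPM and 50.2 ± 7.06 TPM, with a log2 change of -1.34 and an adjusted p of 0.0345. Neither Tkfc nor Slc2a5 was called after median-of-ratios rescaling. Akr1b3, aldose reductase, which makes the sorbitol used by Sord, had a log2 change of -1.77 ± 0.775 and an adjusted p of 0.0565, with 174 ± 122 TPM and 506 ± 254 TPM.

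Of 11 inositol and glucuronate genes, 7 fell in Hap-I adult WD against C57 and 0 rose, again beside 59.7% of all genes called lower, with a median log2 change of -1.34, or -0.42 with 2 higher and 4 lower after median-of-ratios rescaling. The sodium-coupled inositol transporter genes Slc5a3 and Slc5a11 were among them. Slc5a3 averaged 4.91 ± 3.18 TPM in Hap-I adult WD and 25.1 ± 11.8 TPM in C57 and fell by 2.15 ± 0.483, with an adjusted p of 0.00259. Slc5a11 averaged 10.9 ± 3.29 TPM and 45.2 ± 2.45 TPM and fell by 1.99 ± 0.415, with an adjusted p of 0.00187. Isyna1, which makes inositol from glucose 6-phosphate, averaged 6.97 ± 2.73 TPM and 30.1 ± 8.53 TPM and fell by 1.99 ± 0.363. All 3 stayed lower and called in each of the 3 rescalings, while the Miox call was lost in 1 of them, median of ratios.

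The other diet groups gave fewer calls in these lists and among all genes, of which 17.5% were called in Hap-I aged WD and 39.7% in Hap-II adult WD, against 62% in Hap-I adult WD. In Hap-II adult WD against C57, 8 of 16 gluconeogenesis genes fell and 1, Mpc1, rose, 3 of 11 fructose genes fell, and 6 of 11 inositol genes fell. In Hap-I aged WD against C57, 4 of 16 gluconeogenesis genes, 1 of 11 fructose genes and 5 of 11 inositol genes fell and none rose. Slc5a3 had a log2 change of -1.80 ± 0.483 in Hap-I aged WD and -1.71 ± 0.483 in Hap-II adult WD, with adjusted p of 0.0273 and 0.0154.

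Genes of the opposing and regulating steps were read in the same comparison of Hap-I adult WD with C57, where 59.7% of all genes were called lower. Of 23 glycolysis genes, 17 fell and 0 rose, with a median of -1.16, and 7 fell and 1 rose after median-of-ratios rescaling. Hk1, a hexokinase, fell by 3.03 ± 0.523, Pfkp, a phosphofructokinase, by 2.74 ± 0.398 and Pkm, a pyruvate kinase, by 2.73 ± 0.457 on the log2 scale. All 3 stayed lower and called in each rescaling, but rescaling does not adjust for cell content. The 9 thick limb and distal markers were all below 0 here, 8 of them called, with a median of -2.33. They summed to 132 to 969 TPM in Hap-I adult WD and 2379 to 4087 TPM in C57. The part of these cells in the changes was not tested. Of 18 regulators of these pathways, 11 fell and 0 rose, with 4 lower and 2 higher after median-of-ratios rescaling. Foxo3 and Insr, the insulin receptor gene, fell by 2.09 ± 0.432 and 1.62 ± 0.377. Ppargc1a, a coactivator of gluconeogenic genes, fell by 1.46 ± 0.438 with an adjusted p of 0.0102, and was not called after median-of-ratios rescaling. Hnf4a, a factor known to act on Pck1 and G6pc, averaged 92.4 ± 17.2 TPM in Hap-I adult WD and 178 ± 41.9 TPM in C57, with a log2 change of -0.92 ± 0.338 and an adjusted p of 0.0271, which turned to 0.09 after median-of-ratios rescaling. Hnf4a was picked out after its values were seen.

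The enzymes were low in the labelled Hap-I libraries, where neuron markers were high and tubule markers low, so these are not levels of kidney without tubules. Khk was listed at 0 in 7 of the 8 libraries and at 0.281 TPM in library 2 of the labelled Hap-I adults. G6pc reached at most 0.343 TPM, Pck1 2.86 TPM, Fbp1 3.63 TPM and Miox 3.94 TPM, each in a labelled Hap-I aged library. Sord and Pcx, enzymes of many tissues, stayed measurable. Sord had 16.2, 16.9, 21.4 and 17.4 TPM in the labelled Hap-I aged libraries and 17.1, 17.8, 14.7 and 20.9 TPM in the labelled Hap-I adult libraries. Pcx had 4.23, 4.58, 2.41 and 3.60 TPM in the labelled Hap-I aged libraries and 7.64, 1.81, 4.15 and 3.49 TPM in the labelled Hap-I adult libraries.

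By the labels, the diet comparison in Hap-I sets kidney against these libraries. All 7 enzymes were higher in Hap-I aged WD than in the labelled Hap-I aged libraries, where 20.5% of 15200 genes were called higher, and all 7 were higher in Hap-I adult WD than in the labelled Hap-I adult libraries, where 16.9% were. The log2 changes were smallest for Pcx, 3.83 ± 0.366 in aged mice and 3.14 ± 0.366 in adults, and largest for Miox, 9.44 ± 0.371 in aged mice. All 7 were lower in the labelled Hap-I adult libraries than in C57, where 25.6% of genes were called lower, from -3.49 ± 0.366 for Pcx to -11.14 ± 0.371 for Miox. Diet and tissue content cannot be told apart in the comparisons of diet groups with labelled Hap-I libraries. Nor can transgene and tissue content in the comparison of labelled Hap-I adult libraries with C57. Of the 11 fructose and polyol genes, 9 were higher in the diet group in both comparisons. The paralog G6pc3 went the other way, at 18.4 ± 2.05 TPM in Hap-I adult WD and 56.5 ± 9.34 TPM in the labelled Hap-I adult libraries, a log2 change of -1.56 ± 0.241. Hnf4a averaged at most 0.272 TPM in either labelled Hap-I group.

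Age was also compared between the labelled Hap-I aged and labelled Hap-I adult libraries. None of the 7 enzymes changed there by limma, where 0.428% of genes were called, and 1 had an unadjusted p under 0.05. That gene was Miox, at 2.23 ± 1.73 TPM in the aged and 0.536 ± 0.576 TPM in the adult libraries (SD, n = 4 each), levels far below those of kidney.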

How the data were processed

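The deposited table holds TPM per gene for 24 libraries of polyadenylated RNA, and the authors made these values with tools that the submitters' processing notes list as kallisto, DESeq2 and the build GRCm38, with neither version nor role. The sources used here do not give the annotation or any filter. Deposited TPM sum to between 904693 and 944019 per library, so depth is unknown and counting intervals cannot be had. An exact 0 may be a failed estimate and is called listed at 0. Symbols and positions came from GENCODE M21 on GRCm38, which named 29811 of 30153 identifiers. Promoter windows came from RefSeq, build GRCm38.p6.

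Levels were tested as log2(TPM + 1) computed from the deposited TPM, a scale that understates changes of low genes. A fit kept genes that reached 1 TPM in 4 or more of its libraries. The 5 comparisons among kidney groups were fitted on 16 libraries and the 4 comparisons with labelled Hap-I libraries on 24, using eBayes with trend in limma 3.58.1 (R 4.3.3). Tests were two-sided, adjusted by Benjamini-Hochberg over all genes tested, with a threshold of 0.05. The 8 labelled Hap-I libraries stayed out of the first fit because tubule genes near 0 would lower the shared spread. All 7 enzymes were named in each comparison. Other genes named were up to 4 called genes a list by size of change, 9 paralogs and pathway partners with or without a call, and the 2 nearest profiles of each enzyme, predicted genes left out. Some results that this rule names are not reported here. Enzymes and lists were chosen with earlier results of these data known, so no count over a list is independent support. The fit was tested on simulated data. Tables were handled in Python 3.11.15 with pandas 2.3.3. Alternatives were the pseudocount, the filter, 3 rescalings, array weights, the libraries in the fit, each library left out, a replicate block, 2 covariates, a length correction and the 2 libraries with the fewest genes above 0 left out.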

Additional observations from a re-analysis of the deposited data

Results flagged for a closer look

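Of 42 sets of 4 libraries (7 enzymes in 6 groups) checked for a library far from the others, 2 stood out. Chance flags about 1 in 20 sets of normally distributed values, a rate that does not hold for sets with libraries listed at 0. Khk in the labelled Hap-I aged group was listed at 0 in all 4 libraries, so it could not be flagged. Pck1 in Hap-I aged WD library 2 was 2150.1 TPM, and the gap to the next library was 0.921 of the range of the group. The same library was also the highest of its group for G6pc, Fbp1, Khk, Miox and Sord. Without it, Pck1 had a log2 change of -0.06 against Hap-I adult WD, and Miox against C57 had a log2 change of -0.96 and passed the test with an adjusted p of 0.0271 in limma. Khk in labelled Hap-I adult library 2 was 0.281 TPM, with the other 3 libraries listed at 0. Those zeros fix the gap at 1 of the range whatever the value of library 2, so this flag carries no weight. No cause of either value was tested.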

How the results depend on the processing

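As reported, genes called numbered 4 for age on the diet, 10 for Hap-I minus Hap-II, 2260 for Hap-I aged WD minus C57, 8009 for Hap-I adult WD minus C57, 5127 for Hap-II adult WD minus C57 and 65 for age in labelled Hap-I libraries. Of 688 enzyme values under settings other than leaving out a library, 584 kept their sign and side of the threshold, 79 turned in sign, 12 lost a call and 17 gained one, 4 of these with the sign turned, and no cause was tested. In the comparisons of diet groups and of C57 with labelled Hap-I libraries, all 7 enzymes kept sign and call under every setting run. With a pseudocount of 0.1, calls numbered 889 for Hap-I aged WD minus C57 and 3 for age in labelled Hap-I libraries. With no filter on low values, calls numbered 262 for age in labelled Hap-I libraries. With a filter of 5 TPM, calls numbered 1238 for Hap-I aged WD minus C57 and 27 for age in labelled Hap-I libraries. After median-of-ratios rescaling, calls numbered 988 for Hap-I aged WD minus C57, 4135 for Hap-I adult WD minus C57, 2923 for Hap-II adult WD minus C57 and 19 for age in labelled Hap-I libraries. Signs that turned there were for age on the diet G6pc -0.12, Fbp1 -0.11, Khk -0.11, Miox -0.0094, Sord -0.29, and for Hap-I minus Hap-II Fbp1 0.077, and for Hap-I aged WD minus C57 Pck1 0.32, G6pc 0.24, Fbp1 0.42, and for Hap-I adult WD minus C57 Pck1 0.30, G6pc 0.36, Fbp1 0.53, Khk 0.81, Sord 0.95, Pcx 0.65, and for Hap-II adult WD minus C57 G6pc 0.57, Fbp1 0.45, Sord 0.57, Pcx 0.65, and for age in labelled Hap-I libraries Sord -0.11. After quantile normalization, calls numbered 3910 for Hap-I adult WD minus C57, 2915 for Hap-II adult WD minus C57 and 22 for age in labelled Hap-I libraries. The sign also turned for Hap-I adult WD minus C57 Khk 0.26, Pcx 0.33, and for Hap-II adult WD minus C57 G6pc 0.15, Pcx 0.41, and for age in labelled Hap-I libraries Sord -0.12. With mitochondrially encoded genes removed, calls numbered 529 for Hap-I aged WD minus C57, 3352 for Hap-II adult WD minus C57 and 28 for age in labelled Hap-I libraries. Signs that turned there were for Hap-I aged WD minus C57 Fbp1 0.058, and for Hap-I adult WD minus C57 Khk 0.080, Sord 0.21, and for Hap-II adult WD minus C57 G6pc 0.0019, Pcx 0.095, and for age in labelled Hap-I libraries Sord -0.020. With array weights, calls numbered 2199 for age on the diet, 51 for Hap-I minus Hap-II, 6763 for Hap-I aged WD minus C57, 9706 for Hap-II adult WD minus C57 and 550 for age in labelled Hap-I libraries. The sign also turned for Hap-I adult WD minus C57 Khk 0.020, Sord 0.0022, and for Hap-II adult WD minus C57 Pcx 0.11, and for age in labelled Hap-I libraries Sord -0.058, Pcx 0.20. With all 24 libraries fitted, calls numbered 443 for age on the diet and 4810 for Hap-I aged WD minus C57. With only the compared groups fitted, calls numbered 2 for age on the diet and 4 for age in labelled Hap-I libraries. With Y-linked genes as a covariate, calls numbered 501 for Hap-I aged WD minus C57, 3284 for Hap-I adult WD minus C57 and 1926 for Hap-II adult WD minus C57. The sign also turned for Hap-I aged WD minus C57 Pck1 0.38, Fbp1 0.011, Sord -0.025, and for Hap-I adult WD minus C57 Pck1 0.28, Khk 0.075, and for Hap-II adult WD minus C57 G6pc 0.19. With proximal tubule markers as a covariate, calls numbered 9 for age on the diet, 210 for Hap-I aged WD minus C57, 167 for Hap-I adult WD minus C57 and 898 for Hap-II adult WD minus C57. Signs that turned there were for age on the diet Pck1 -0.087, G6pc -0.30, Fbp1 -0.016, Sord -0.022, and for Hap-I minus Hap-II G6pc 0.028, Fbp1 0.080, and for Hap-I aged WD minus C57 Pck1 0.66, G6pc 0.70, Fbp1 0.41, and for Hap-I adult WD minus C57 Pck1 0.74, G6pc 1.00, Fbp1 0.42, Khk 0.11, Sord 0.37, and for Hap-II adult WD minus C57 Pck1 0.23, G6pc 0.98, Fbp1 0.34, Sord 0.13. After length correction, calls numbered 7 for age on the diet, 1473 for Hap-I aged WD minus C57, 3992 for Hap-I adult WD minus C57 and 3029 for Hap-II adult WD minus C57. The sign also turned for age on the diet G6pc -0.058, Sord -0.22, and for Hap-I minus Hap-II Pcx 0.011, and for Hap-I aged WD minus C57 Pck1 0.15, G6pc 0.076, Fbp1 0.16, and for Hap-I adult WD minus C57 Pck1 0.070, G6pc 0.13, Fbp1 0.11, Khk 0.39, Sord 0.72, Pcx 0.69, and for Hap-II adult WD minus C57 G6pc 0.40, Fbp1 0.13, Sord 0.40, Pcx 0.68. Without the 2 libraries with the fewest genes above 0, calls numbered 4 for Hap-I minus Hap-II, 3555 for Hap-I aged WD minus C57 and 2201 for Hap-II adult WD minus C57. Signs that turned there were for Hap-I minus Hap-II Pck1 -0.55, and for Hap-I adult WD minus C57 Sord 0.016, and for Hap-II adult WD minus C57 G6pc 0.19. The split of calls moved with scaling: median-of-ratios gave 2304 higher and 1831 lower in Hap-I adult WD minus C57, against 294 and 7715 as reported, 459 and 529 against 160 and 2100 in Hap-I aged WD minus C57, and 1661 and 1262 against 353 and 4774 in Hap-II adult WD minus C57. Leaving out each library in turn gave 2 to 22 for age on the diet, 4 to 7 for Hap-I minus Hap-II, 347 to 4805 for Hap-I aged WD minus C57, 6042 to 8104 for Hap-I adult WD minus C57, 1803 to 6961 for Hap-II adult WD minus C57 and 32 to 203 for age in labelled Hap-I libraries. The lowest and highest counts for Hap-I aged WD minus C57 came without C57 library 4 and without Hap-I aged WD library 2, those for Hap-II adult WD minus C57 without its libraries 3 and 1, those for age on the diet without Hap-I aged WD libraries 1 and 4, and those for age in labelled Hap-I libraries without aged library 3 and adult library 2. Enzymes that turned in sign ranged, in the same exercise, for age on the diet G6pc -0.046 to 0.73, Pck1 -0.059 to 0.66; for Hap-I minus Hap-II Fbp1 -0.43 to 0.030, Pck1 -0.51 to 0.45, Sord -0.014 to 0.19; for Hap-I aged WD minus C57 Fbp1 -0.41 to 0.0077, G6pc -0.70 to 0.073, Khk -0.13 to 0.27, Sord -0.079 to 0.26; for Hap-I adult WD minus C57 Sord -0.22 to 0.019; for Hap-II adult WD minus C57 G6pc -0.41 to 0.19, Pcx -0.32 to 0.23; for age in labelled Hap-I libraries Khk -0.12 to 0.0, Pcx -0.34 to 0.20, Sord -0.054 to 0.11. Miox in Hap-I adult WD minus C57 ranged from -1.31 to -1.05 and was called in 8 of 8, and in Hap-II adult WD minus C57 from -1.08 to -0.56 and was called in 1 of 8, without Hap-II adult WD library 1. Title numbers 1 to 4 recur in the 3 diet groups. Deviations of same-numbered libraries correlated at -0.136 to 0.525, with 8 of 12 pairs over 0.1, against -0.499 to 0.550 in other pairs. In all 3 diet groups Eif2s3y was below 5 TPM in number 1 and at or above 5 TPM in numbers 3 and 4. Since not every pair exceeded 0.1, the numbers were not taken as pairs. A fit of the 12 diet libraries with the number as replicate block gave 2 calls for age and 5 for Hap-I minus Hap-II, and no enzyme was called. TPM keep no depth, so precision rests on 4 animals a group, and several differences larger than their SE did not pass the test.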
